A study of Mus musculus with 6 samples.

Results

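The genes described here build or control the axoneme, the microtubule core of motile cilia. They were taken by name from the deposited table of hippocampal expression: every gene whose symbol starts with Dnah, Dnai, Cfap, Rsph, Tekt or Drc, together with Foxj1, Hydin, Spag16, Spag17, Ccdc39, Ccdc40, Ccdc153, Ccdc170 and Ttc21a. This gave 71 of the 20620 genes listed, and all 71 were tested. The rule reads names only, but it was set with earlier results of these data known. Motile cilia beat by means of dynein motors that slide neighbouring microtubule doublets, and in the brain they are carried in tufts by ependymal cells, which line the ventricles and move cerebrospinal fluid. Most neurons and astrocytes carry a single primary cilium instead, which has no dynein arms or central pair and serves signalling. The choroid plexus, which borders the same ventricles, also bears cilia and shares part of this gene programme.

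Hippocampal RNA came from 6 male mice of the C57BL/6J background, 1 library per mouse, each animal with its own number in the labels. The 3 control mice had the genotype Braf Q241R Neo/+ and were 32, 32 and 31 weeks old. The 3 n-Braf mice had the genotype Braf Q241R/+ with CaMKII-Cre and were 33, 32 and 34 weeks old. The comparison addresses expression of mutant BRAF, a kinase of the RAS-ERK pathway, in mature excitatory neurons, where the Camk2a promoter is active. Both groups carry the mutant allele, and they differ in the Cre transgene and the Neo cassette together, so effects of these and of the mutant protein cannot be told apart. Cilia were not measured in these libraries, and in bulk tissue fewer cells of a type and less RNA per cell cannot be told apart.

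Assigned counts per library lay between 25227112 and 31832245. Braf stood at 116 to 123 CPM (counts scaled to a common library total with TMM factors) in the controls and at 184 to 205 CPM in n-Braf. All 16 tested markers of dentate and CA field neurons were detected in every library, with summed levels of 756 to 1046 CPM. Controls 1 and 2 stood apart in choroid plexus markers: the 16 tested markers summed to 3661 and 2058 CPM there, to 151 CPM in control 3 and to 104 to 121 CPM in n-Braf. No choroid plexus marker was at 0 counts in any library. Control 1 also differed most from the other libraries over all genes, its pairs having chi-square values, divided by their degrees of freedom, of 51.1 to 69.2 and the other pairs 8.89 to 14.1. Results are therefore given also against control 3 alone, where the lone control is assumed to vary like n-Braf.

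Most motile cilia genes were lower in n-Braf, none past the threshold. Of the 71, 61 had a negative log2 fold change and 10 a positive one, against 51.0% and 49.0% of all genes tested, and their median was -0.57, against -0.0042 over all 20604 genes tested. At an adjusted p of 0.05 in edgeR's quasi-likelihood test 0 of the 71 passed, as did 0.0% of all genes. The smallest adjusted p of a member was 0.527. At an unadjusted p of 0.05 the counts were 34 lower and 0 higher, while 3.73% of all genes were lower and 3.09% higher by that rule. The 3 n-Braf libraries lay below the 3 controls in 31 members and above them in 0, against 5.44% and 6.09% of all genes. Summed over the members, levels were 749, 692 and 607 CPM in the controls and 566, 520 and 553 CPM in n-Braf 1, 2 and 3. Every control sum lay above every n-Braf sum.

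Other tools on the same counts called some members, all lower. DESeq2 called 8 (Ccdc153, Ccdc170, Cfap44, Dnai3, Drc7, Hydin, Rsph4a and Ttc21a), against 0.269% of all genes called lower, while limma-voom called 0 at an adjusted p of 0.05 and 33 at an unadjusted p of 0.05, all lower, against 3.11% of all genes. Without control 3 the quasi-likelihood test called 7 (Ccdc170, Cfap44, Dnah6, Dnah11, Drc7, Foxj1 and Ttc21a), against 0.369% of all genes. The authors' deposited table has 2 members with an adjusted p under 0.05, Ccdc170 at 0.00906 and Dnai3 at 0.0446, where 0.0727% of all its genes were lower by that rule. These tests share the counts and are not independent of each other.

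The size of the difference depended on the control library. Control 1 was the highest of the 6 libraries for 40 members and n-Braf 2 the lowest for 32, against 4661 and 3164 of all 20604 genes. Levels ran in the order control 1, control 2, control 3 in 38 of the 71, which 17.2% of all genes did. Control 3 still lay above all 3 n-Braf libraries in 37 members, against 23.7% of all genes. Against control 3 alone 53 of the 71 were lower and their median was -0.23 on the log2 scale, while 49.2% of all genes were lower. In that fit 0 members passed an adjusted p of 0.05, against 0.00485% of all genes called lower, and 6 had an unadjusted p under 0.05 (Ccdc153, Ccdc170, Cfap69, Dnah3, Dnah6 and Dnah12), all lower, against 1.36% of all genes. Without control 1 the median was -0.42, with 60 members lower.

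**Figure D1:**
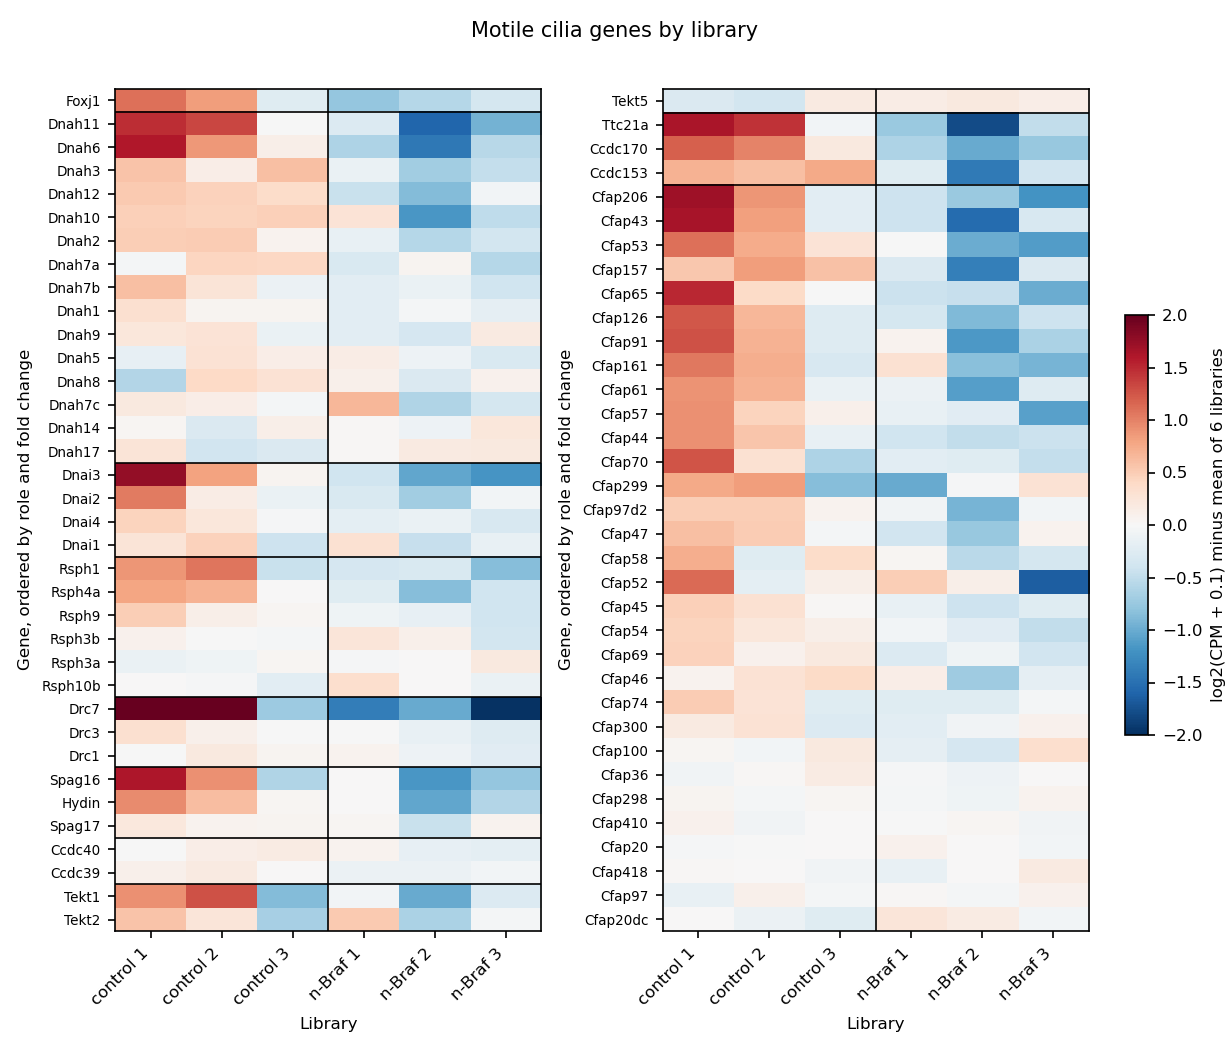
Each row is 1 of the 71 motile cilia genes and each column 1 library; colour shows log2(CPM + 0.1) minus the mean over the 6 libraries, from -2 (blue) to 2 (red) with values beyond drawn at these limits, and lines separate the roles and the groups. Control 1 was the highest library for 40 genes and n-Braf 2 the lowest for 32, against 4661 and 3164 of all 20604 genes tested.

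Some members have a promoter sequence feature that the choice by name did not use. RFX transcription factors, which act with FOXJ1 in ciliated cells, bind an element called the X-box. RefSeq promoters (GRCm38.p6, 250 bases before to 50 after the annotated start) were found for 58 members, with 65 promoters in all. As an X-box the letters GTT, any base, CC, any 3 bases, G, any base and AAC were searched on both strands, and they stood in promoters of 7 of the 58 members (12.1%), and in 0.886% of 17492 protein-coding genes. The half-site GTTGCCA stood in 25.9% of the members and 4.8% of the protein-coding genes, and 2 of its 19 matches overlapped an X-box match. The forkhead core TGTTTAC stood in 6.9% against 3.45%. No test of enrichment was run, and a match shows only that these letters are present. The 6 matches that lie wholly before the start site are shown because they come both from members whose groups did not overlap and from members whose groups did; none of these members passed the test. Each is written 5′ to 3′ on the strand of the gene, with the X-box letters in capitals. For Hydin, Cfap44 and Cfap45 the searched letters read on the opposite strand, so the capitals show their reverse complement.
Hydin: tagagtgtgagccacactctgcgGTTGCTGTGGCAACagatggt
Cfap44: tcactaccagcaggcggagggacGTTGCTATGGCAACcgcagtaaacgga
Cfap45: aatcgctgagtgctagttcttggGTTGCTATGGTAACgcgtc
Spag16: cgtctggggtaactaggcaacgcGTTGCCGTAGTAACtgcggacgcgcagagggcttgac
Cfap298: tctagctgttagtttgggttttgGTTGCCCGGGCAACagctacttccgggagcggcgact
Cfap20dc: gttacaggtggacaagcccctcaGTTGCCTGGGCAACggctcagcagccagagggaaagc

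On GRCm38 these stretches lie at chr8:110266933-110266976 (plus strand) for Hydin, chr16:44394749-44394798 (plus) for Cfap44, chr1:172521088-172521129 (plus) for Cfap45 and chr1:69826844-69826903 (plus) for Spag16. Those of Cfap298 and Cfap20dc lie at chr16:90935001-90935060 (minus) and chr14:8666356-8666415 (minus). The X-box of Hydin, Cfap44 and Cfap45 begins 21, 27 and 19 bases before the annotated start. In Spag16, Cfap298 and Cfap20dc it begins 103, 188 and 102 bases before it. The n-Braf libraries lay below every control for Hydin, Cfap44 and Cfap45, and overlapped the controls for Spag16, Cfap298 and Cfap20dc. Of the 7 members with an X-box match, which include Cfap61, 6 were lower and 3 did not overlap between groups, against 61 and 31 of all 71 members and 51.0% and 5.44% of all genes.

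Foxj1 encodes the forkhead factor that switches on the motile cilia programme and lies on chromosome 11 at 116330704 to 116335399 (GRCm38, GENCODE M21). It measured 5.18, 4.34 and 1.99 CPM in the 3 controls, in their order, against 1.35, 1.57 and 1.84 CPM in n-Braf 1, 2 and 3. The groups did not overlap, but control 3 was close to the n-Braf libraries and far from the other controls. The log2 fold change was -1.27 (SE 0.34, edgeR quasi-likelihood adjusted p = 0.543). Against control 3 alone it was -0.33 (unadjusted p = 0.369).

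The axonemal dynein heavy chains are the motor subunits of the outer and inner arms, and 13 of 15 were lower (median log2 fold change -0.53). Dnah11, an outer arm motor on chromosome 12 at 117877982 to 118199043, stood at 11.5, 10.5 and 4.05 CPM in the controls and at 3.35, 1.29 and 2.08 CPM in n-Braf. Dnah6, an inner arm motor, stood at 17.7, 10.5 and 6.27 CPM against 3.72, 2.08 and 3.88 CPM. In both genes controls 1 and 2 were well above control 3, which in turn was above every n-Braf library. Their log2 fold changes were -1.96 (SE 0.43) and -1.83 (SE 0.37), with adjusted p-values of 0.527 each. Dnah11 was at -0.85 and Dnah6 at -0.96 against control 3 alone.

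In some other heavy chains control 3 was level with the other controls. Dnah12, an inner arm motor, stood at 4.18, 4.04 and 3.78 CPM in the controls and at 2.10, 1.54 and 2.79 CPM in n-Braf. Dnah3 stood at 2.87, 2.09 and 2.92 CPM against 1.72, 1.13 and 1.33 CPM, and Dnah10 at 3.77, 3.66 and 3.74 CPM against 3.25, 1.13 and 1.84 CPM. For these 3 inner arm genes all controls lay above all n-Braf libraries, with log2 fold changes of -0.90 (SE 0.23), -0.91 (SE 0.25) and -0.84 (SE 0.33), and with adjusted p-values of 0.543, 0.543 and 0.712. Dnah12 and Dnah3 were singled out after their values were seen, as was Dnah10. Level controls did not always come with lower n-Braf values. Dnah7c and Dnah14 also had control 3 near the other controls, but their groups overlapped (log2 fold changes -0.09 and 0.09). Dnah1 did not overlap, with a smaller log2 fold change of -0.30 (SE 0.14).

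The 2 outer arm heavy chains with the most counts overlapped between the groups. Dnah9, the more abundant, stood at 51.1, 53.1 and 40.2 CPM in the controls and at 38.0, 34.6 and 49.8 CPM in n-Braf, with n-Braf 3 inside the control range (log2 fold change -0.24, SE 0.15, adjusted p = 0.828). Dnah5, its partner in the outer arm, also overlapped, at 11.9, 16.3 and 14.8 CPM against 14.8, 12.5 and 10.8 CPM. Dnah7b was below the controls in all n-Braf libraries, at 10.6, 11.2 and 9.29 CPM against 18.7, 14.8 and 11.4 CPM, and Dnah2 at 5.85, 4.31 and 5.005 CPM against 9.17, 9.20 and 6.81 CPM. Dnah7b was at -0.53 on the log2 scale (SE 0.17), at -0.34 without control 1 and at -0.14 against control 3 alone. Dnah7a, Dnah7b and Dnah7c are close copies on chromosome 1, so how reads were shared among them is uncertain. Dnah17, an outer arm chain of sperm, had the highest log2 fold change of the class at 0.26 (SE 0.27), with 1.64, 1.01 and 1.09 CPM against 1.38, 1.54 and 1.57 CPM. Per kilobase of exon the control mean ran from 0.0491 CPM for Dnah8 to 3.02 CPM for Dnah9, the next being Dnah5 at 0.916 CPM.

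The dynein intermediate chains anchor the motors, and all 4 were lower. Dnai3, of an inner arm, stood at 2.98, 1.50 and 0.857 CPM in the controls and at 0.595, 0.346 and 0.306 CPM in n-Braf. It rested on few reads, 80, 40 and 22 counts against 19, 11 and 9. All n-Braf libraries lay below all controls, and its log2 difference was -2.08 (SE 0.50, adjusted p = 0.527). Dnai4, also of an inner arm and the most abundant of the 4, stood at 18.3, 15.7 and 13.3 CPM against 11.8, 12.3 and 10.8 CPM (log2 fold change -0.44, SE 0.13). For the outer arm chains Dnai1 and Dnai2 the groups overlapped, with log2 fold changes of -0.23 (SE 0.31) and -0.82 (SE 0.37). Without control 1 Dnai2 was at -0.37, and without control 2 Dnai1 was at -0.035. Without control 3, n-Braf 1 or n-Braf 2 Dnai1 was at -0.45, -0.47 or -0.058, and against control 3 alone at 0.36. In that last fit Dnai2 was at -0.21, Dnai3 at -1.03 and Dnai4 at -0.19.

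**Figure D2:**
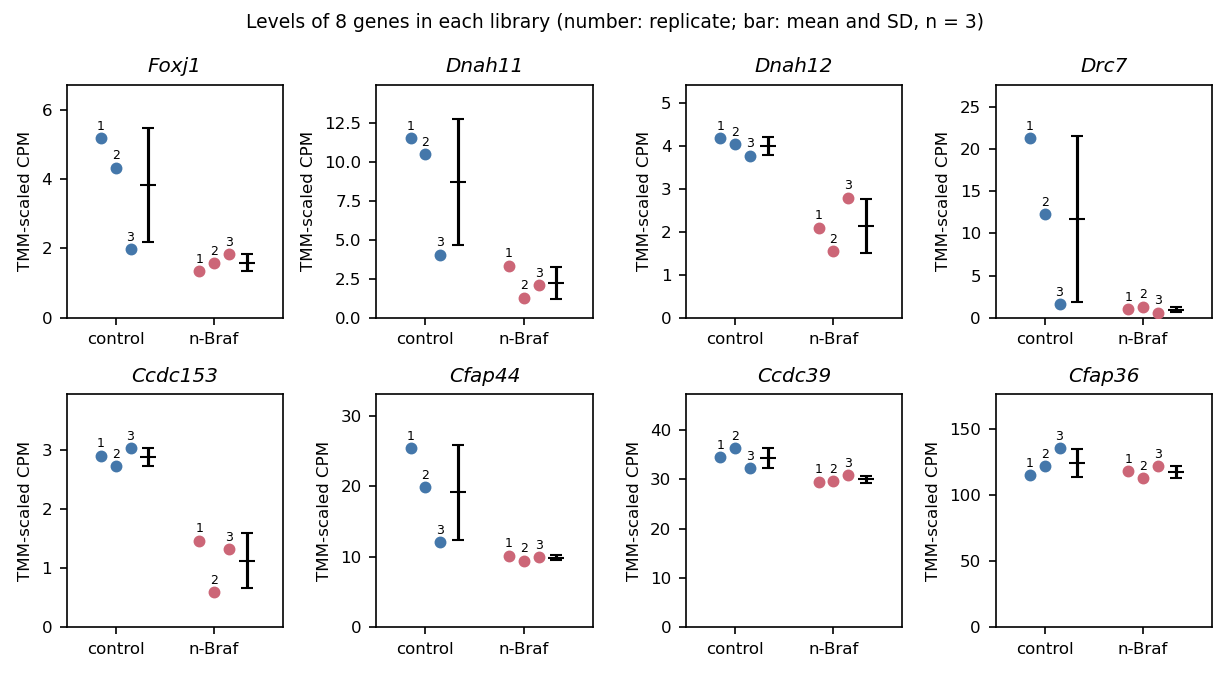
Points are the TMM-scaled CPM of 8 genes in each of the 3 control (blue) and 3 n-Braf (red) libraries, numbered by replicate, with the mean and SD (n = 3) as black bars; each vertical axis starts at 0. Foxj1, Dnah11, Drc7 and Cfap44 were high in controls 1 and 2, Dnah12 and Ccdc153 were alike in the 3 controls, and Ccdc39 and Cfap36 varied little.

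The radial spokes pass signals from the central pair to the dynein arms, and their genes were split. The spoke head genes Rsph4a, Rsph9 and Rsph1 were lower, with log2 fold changes of -1.03 (SE 0.25), -0.44 (SE 0.16) and -1.17 (SE 0.38) and adjusted p-values of 0.527, 0.672 and 0.621. Rsph4a stood at 7.94, 7.44 and 4.56 CPM in the controls and at 3.82, 2.49 and 3.44 CPM in n-Braf, without overlap. Without control 1 Rsph9 was at -0.29, and against control 3 alone Rsph4a was at -0.49 and Rsph1 at -0.035. Rsph1 stood at 3.84, 4.41 and 1.48 CPM against 1.60, 1.64 and 1.09 CPM, where control 3 fell within the n-Braf range. Rsph3a and Rsph3b, near-identical copies that encode a stalk protein, were level, at 12.4 ± 0.782 and 16.9 ± 0.791 CPM in the controls and 13.5 ± 1.15 and 16.9 ± 3.52 CPM in n-Braf (SD, n = 3). Rsph10b had the highest log2 fold change of the class at 0.16 (SE 0.19).

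The nexin-dynein regulatory complex links neighbouring doublets and limits their sliding. Drc7 had the lowest log2 fold change of the 71 members. It lies on chromosome 8 at 95055103 to 95078141 and stood at 21.3, 12.3 and 1.60 CPM in the controls and at 0.970, 1.29 and 0.613 CPM in n-Braf. Controls 1 and 2 were far above every other library, and control 3 only slightly above n-Braf. The log2 fold change was -3.60 (SE 0.77, adjusted p = 0.527), and -0.73 against control 3 alone. Drc1, which forms the base of the complex, stood at 10.1, 11.6 and 10.5 CPM against 10.6, 9.38 and 8.61 CPM, and Drc3 at 7.68, 6.58 and 6.07 CPM against 6.10, 5.54 and 5.11 CPM. Both overlapped between the groups, with log2 fold changes of -0.17 (SE 0.12) and -0.28 (SE 0.15). Drc3 was at -0.18 without control 1 and at -0.12 against control 3 alone.

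Genes of the central pair, the inner pair of microtubules that steers the beat, were lower to different extents. Hydin stood at 9.47, 7.55 and 5.02 CPM in the controls and at 4.88, 2.33 and 3.20 CPM in n-Braf, with no overlap but a narrow gap between control 3 and n-Braf 1. Its log2 fold change was -1.08 (SE 0.30, adjusted p = 0.543), and -0.53 against control 3 alone. Spag16 stood at 4.89, 2.95 and 0.973 CPM against 1.53, 0.629 and 0.851 CPM, with control 3 inside the n-Braf range. On the log2 scale Spag16 was at -1.54 (SE 0.54, adjusted p = 0.653), at -0.96 without control 1 and at 0.048 against control 3 alone. Spag17 stood at 1.79, 1.61 and 1.60 CPM against 1.56, 1.10 and 1.60 CPM, with a log2 fold change of -0.23 (SE 0.25).

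Ccdc39 and Ccdc40 encode the coiled-coil ruler that sets the spacing of the arms and spokes along each doublet, and they differed little. Ccdc39 stood at 34.5, 36.3 and 32.3 CPM in the controls and at 29.5, 29.6 and 30.9 CPM in n-Braf, or -0.20 on the log2 scale (SE 0.08, adjusted p = 0.685). The gap between the groups was small but all n-Braf libraries lay below all controls. Ccdc40 overlapped, at 2.27, 2.51 and 2.57 CPM against 2.41, 2.01 and 1.97 CPM. The tektins form filaments inside the doublets. Tekt1 stood at 2.54, 3.29 and 0.662 CPM against 1.25, 0.598 and 1.06 CPM, so that its log2 fold change of -1.16 (SE 0.52) came with control 3 inside the n-Braf range. Without control 2 Tekt1 was at -0.73, and against control 3 alone Tekt1 was at 0.55 and Tekt2 at 0.88. Tekt2 had few counts, at 0.273 to 0.783 CPM in all libraries, and Tekt5 had the highest log2 fold change of the 71 at 0.30 (SE 0.17), with 5.26, 5.01 and 7.36 CPM against 7.20, 7.43 and 7.08 CPM. For Tekt5 control 3 was within the n-Braf range and the other controls below it.

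Ccdc153, a coiled-coil gene used as an ependymal marker, had 3 controls alike. It lies on chromosome 9 at 44240676 to 44247306 and stood at 2.91, 2.73 and 3.04 CPM in the controls and at 1.47, 0.598 and 1.33 CPM in n-Braf. The control mean was 2.55 times the n-Braf mean and control 3 alone 2.68 times, for a log2 difference of -1.35 (SE 0.32, adjusted p = 0.527). Ccdc170, a coiled-coil gene of microtubules, had the smallest p of the 71 and stood at 2.69, 2.32 and 1.28 CPM against 0.688, 0.504 and 0.613 CPM. Every control was above every n-Braf library, for a log2 difference of -1.79 (SE 0.34, adjusted p = 0.527). Ttc21a, related to a subunit of intraflagellar transport, stood at 6.41, 5.57 and 1.91 CPM against 1.16, 0.504 and 1.40 CPM, for a log2 difference of -2.19 (SE 0.48, adjusted p = 0.527). Its control 3 value was much nearer to n-Braf than to the other controls.

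The Cfap genes, a mixed class named for cilia and flagella associated proteins, were lower for 27 of 31 members (median on the log2 scale -0.69). Cfap44, part of the tether of an inner arm motor, stood at 25.4, 19.9 and 12.1 CPM in the controls and at 10.2, 9.47 and 9.94 CPM in n-Braf. The n-Braf libraries were close together and below all controls, for a log2 difference of -0.96 (SE 0.23, adjusted p = 0.527). Control 3 was nearer to n-Braf than to the other controls, and against it alone Cfap44 was at -0.30. Cfap65 stood at 16.5, 7.52 and 5.72 CPM against 4.26, 4.15 and 2.86 CPM. Cfap69, of the central pair, stood at 17.6, 13.5 and 14.7 CPM against 10.5, 12.0 and 9.70 CPM. Neither gene overlapped between the groups, and their log2 fold changes were -1.40 (SE 0.36) and -0.51 (SE 0.13), with an adjusted p of 0.543 for each. Cfap65 was at -0.82 without control 1 and at -0.60 against control 3 alone, where Cfap69 was at -0.45. Of the 31 Cfap genes 12 were lower without overlap, against 5.44% of all genes. These also included Cfap43, Cfap45, Cfap53, Cfap54, Cfap57, Cfap126, Cfap157, Cfap206 and Cfap97d2, with log2 fold changes from -1.91 for Cfap206 to -0.52 for Cfap54. Some of these rested on few reads. Cfap126 had 46, 30 and 14 counts in the controls and 16, 10 and 14 in n-Braf. Its control 3 was only slightly above n-Braf 1, at 0.545 against 0.501 CPM. Cfap206 had 85, 47 and 20 counts against 21, 16 and 10, and Cfap157 20, 25 and 20 against 12, 4 and 11. Cfap157 was another gene with level controls, at 0.746, 0.935 and 0.779 CPM against 0.376, 0.126 and 0.375 CPM.

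Several Cfap genes with high counts were flat. Cfap36, which binds a small GTPase of cilia, stood at 115, 122 and 136 CPM in the controls and at 119, 113 and 122 CPM in n-Braf. Cfap20, of the junction between the tubules of a doublet, stood at 31.3, 31.7 and 32.2 CPM against 34.0, 32.2 and 30.8 CPM, and Cfap97 at 27.2, 32.2 and 29.0 CPM against 30.6, 29.3 and 31.9 CPM. The groups overlapped in all 3, and their log2 fold changes were -0.08 (SE 0.07), 0.03 (SE 0.07) and 0.06 (SE 0.09). Cfap298, Cfap410 and Cfap418 lay between -0.04 and 0.03, and Cfap20dc had the highest value of the class at 0.25 (SE 0.13). Per kilobase of exon Cfap36 had the highest control mean of all members, at 45.4 CPM, followed by Cfap298 at 12.6 CPM, while Cfap44 had 2.27 CPM and Foxj1 1.46 CPM. By level, the 18 members above 10 CPM had a median of -0.17 on the log2 scale (6 without overlap, against 3.9% of all genes at that level), the 28 members between 2 and 10 CPM -0.79 (17, against 7.02%), and the 25 members under 2 CPM -0.88 (8, against 6.44%).

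**Figure D3:**
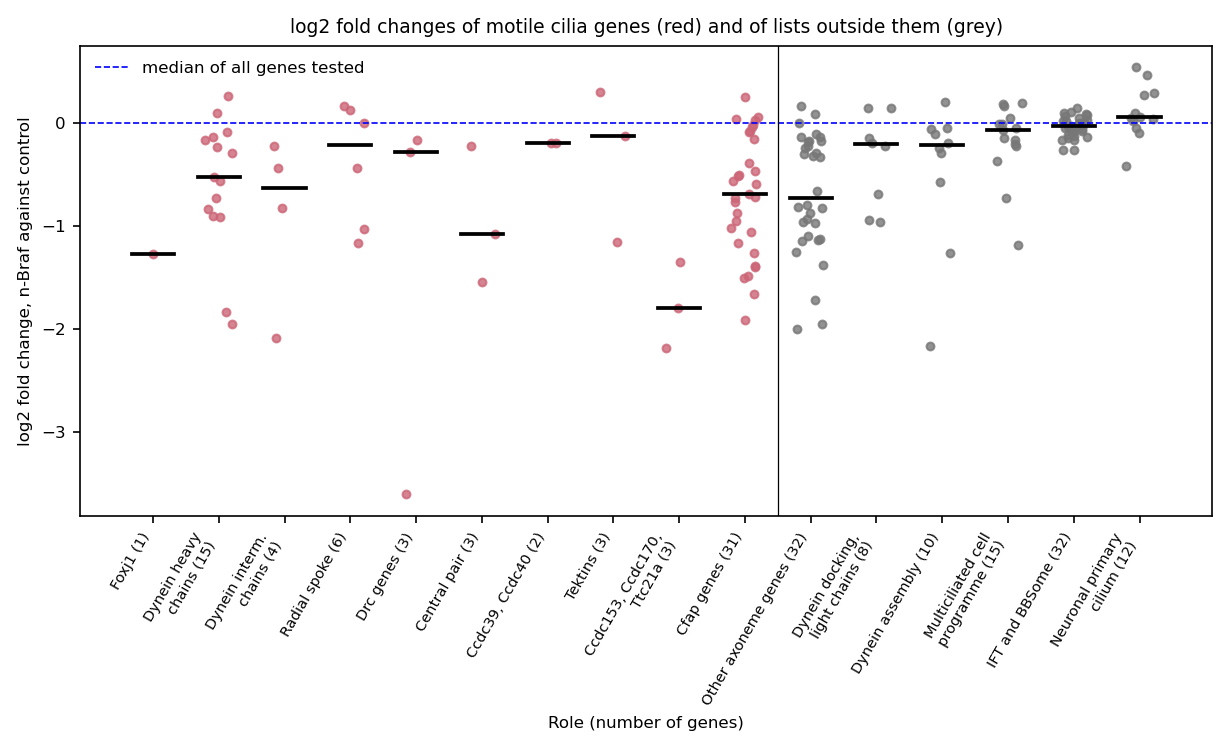
Points are log2 fold changes (n-Braf against control) of single genes, by role for the 71 motile cilia genes (red) and by list for genes outside them (grey), with black bars at the medians and a dashed line at the median of all genes tested, -0.0042. Ccdc153, Ccdc170 and Ttc21a lay lowest as a class, and Drc7 was the lowest single gene at -3.60. The medians of the intraflagellar transport genes and of the neuronal primary cilium genes lay near 0.

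Other genes of motile cilia, listed without the 71, had values of the same sign for the most part. Of 32 further axoneme genes 29 were lower (median on the log2 scale -0.73), and 17 had an unadjusted p under 0.05, all lower, against 3.73% of all genes. Ak7, an adenylate kinase of cilia, stood at 4.40, 3.44 and 2.76 CPM in the controls and at 1.44, 0.913 and 1.74 CPM in n-Braf, and Lrrc23, of the radial spoke head, at 4.03, 2.39 and 1.48 CPM against 0.626, 0.881 and 0.885 CPM. Neither overlapped, and the adjusted p was 0.527 for both. Of 10 factors that assemble dynein arms in the cytoplasm 9 were lower, with a median of -0.22. Among these Dnaaf1 stood at 0.783, 0.673 and 0.779 CPM against 0.0626, 0.0944 and 0.340 CPM, with level controls but only 2, 3 and 10 counts in n-Braf, and Dnaaf3 had a log2 fold change of -1.26 (SE 0.44). Of 8 docking and light chain genes 6 were lower (median -0.21), with the docking genes Odad1 at -0.96 (SE 0.33) and Odad4 at -0.69 (SE 0.29). No gene of these lists passed over all genes.

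Genes upstream of cilia and genes shared with primary cilia had medians near 0. Of 15 genes for the multiciliated cell programme and basal bodies 11 were lower, with a median of -0.07. Gmnc, which acts upstream of Foxj1, stood at 5.56, 5.09 and 1.36 CPM in the controls and at 2.19, 1.16 and 1.94 CPM in n-Braf. Its log2 fold change of -1.18 (SE 0.47), far from the list's median, came with control 3 inside the n-Braf range. Rfx2 had a log2 fold change of -0.37 (SE 0.19). Of 32 genes of intraflagellar transport and the BBSome, which build every cilium, 21 were lower, with a median of -0.03 and the lowest values at -0.27 for Bbs9 and Ift74 (SE 0.10 for each). Of 12 neuronal primary cilium genes 9 were higher (median 0.05), among them the receptors Mchr1 at 0.46 (SE 0.13) and Sstr3 at 0.29 (SE 0.10). The 12 ran from -0.42 to 0.54. At an unadjusted p of 0.05 in the quasi-likelihood test 1 was lower and 2 were higher, against 3.73% and 3.09% of all genes. None of these genes passed over all genes, and whether the lists differ from the motile cilia genes was not tested.

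Markers of other ventricular cells were also mostly lower in n-Braf. As the mean log2 deviation from the average over 6 libraries, the 71 genes were at 0.62, 0.41 and -0.028 in controls 1, 2 and 3 and at -0.13, -0.52 and -0.35 in n-Braf 1, 2 and 3. The choroid plexus markers were at 3.33, 2.42 and -1.21 in the controls and at -1.55, -1.22 and -1.77 in n-Braf. All 16 of these markers were lower, and Ttr, the thyroid hormone carrier of the choroid plexus, stood at 2036, 1121 and 13.8 CPM against 3.32, 12.9 and 1.06 CPM. On this scale control 3 was below the other controls for both sets. For the motile cilia genes it was above every n-Braf library, and for the choroid plexus markers it was level with n-Braf 2 (-1.21 against -1.22). Control 3 was the lowest of the 6 libraries for 2 of the 16 choroid plexus markers. Of the 16, 5 were lower without overlap between the groups, against 5.44% of all genes. The 11 tested ependymal markers outside the axoneme were at 0.69, 0.14 and 0.09 in the controls and at -0.07, -0.35 and -0.50 in n-Braf, with 8 of 11 lower. These mean deviations include Ecrg4, whose log2 fold change of -4.89 was the lowest of the 11, while the median of the 11 was -0.28. Their summed level was 302, 225 and 246 CPM in the controls and 263, 256 and 166 CPM in n-Braf. By this sum n-Braf 1 and 2 were above controls 2 and 3. No ependymal marker was at 0 counts in any library.

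Of the 11 ependymal markers 4 (Rarres2, Ecrg4, Pltp and Cd24a) were lower without overlap, against 5.44% of all genes, and 3 had a positive log2 fold change of at most 0.25. Rarres2, which encodes the secreted protein chemerin, had level controls at 4.10, 3.03 and 4.05 CPM against 2.35, 1.98 and 1.67 CPM in n-Braf, and Ecrg4, a secreted peptide gene also abundant in choroid plexus, stood at 19.5, 11.5 and 0.973 CPM against 0.250, 0.441 and 0.375 CPM. Neither overlapped between the groups, and their log2 fold changes were -0.90 (SE 0.22) and -4.89 (SE 0.94). Meningeal markers summed to 202, 96.1 and 82.4 CPM in the controls and to 104, 78.0 and 33.7 CPM in n-Braf, so n-Braf 1 was above controls 2 and 3. Of the 8 markers 7 were lower, among them Dcn at -0.70 (SE 0.27) and Lum at -1.09 (SE 0.45), and 1 was lower without overlap. Lower values were not particular to ventricular and meningeal markers. All 9 oligodendrocyte markers were lower, with a median of -0.29, against -0.28 for the ependymal markers, though the groups overlapped in each of the 9. The part that the content of choroid plexus, ependyma or meninges in each sample has in the values of the motile cilia genes was not tested.

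**Figure D4:**
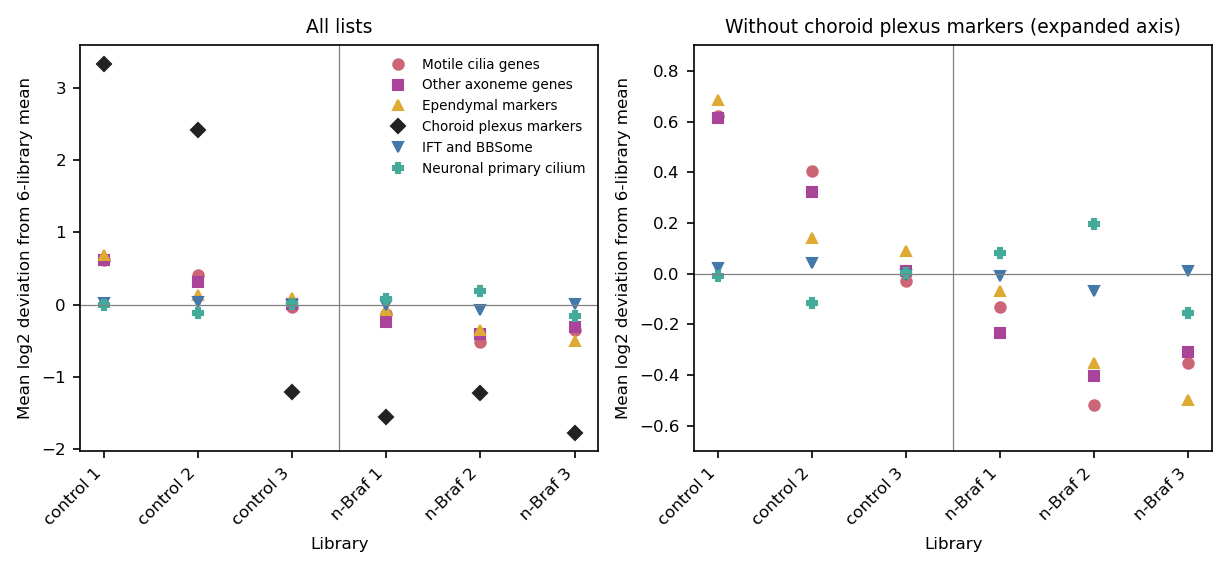
Points are mean log2 deviations from the average over 6 libraries for 6 gene lists in each library, with all lists on the left and without the choroid plexus markers on an expanded axis on the right. Controls 1 and 2 were high in the choroid plexus markers (3.33 and 2.42), control 3 was at -1.21, and the motile cilia genes were at 0.62, 0.41 and -0.028 in the controls and lower in each n-Braf library.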

How the data were processed

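Per the submitters' processing notes, bcl2fastq 2.20, fastp 0.20.1, STAR, RSEM and edgeR 3.36.0 were used on build mm10; the sources used here do not give the strand setting or annotation. Libraries came from 10.0 ng of total RNA with a strand-specific SMART-Seq kit, per the labels' protocols. The table deposited by the authors gives expected counts for each gene, of which 26.2% to 31.4% per library were not whole. Per the file headers it also gives a log2 fold change, an average log2 CPM and raw and adjusted p-values from the authors' own edgeR comparison.

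Expected counts were rounded. In edgeR 4.0.16 (R 4.3.3), filterByExpr with a minimum count of 10 kept 20604 of 20620 genes. Levels are CPM with TMM (trimmed mean of M values) factors. The quasi-likelihood test used all 6 libraries with group as the only term, and Benjamini-Hochberg adjustment over all genes tested, with a threshold of 0.05. The SE is the absolute log2 fold change divided by the square root of the F statistic. The test was also run on simulated counts. There all controls had the same expected levels, so that run does not cover the choroid plexus difference between the controls seen here. Deviations use log2 CPM with a prior count of 2. Alternatives were relative log expression or library size scaling, DESeq2 1.42.0, limma-voom (limma 3.58.1), no filter or a mean CPM of 1, a replicate block, age as a covariate, and fits with libraries left out.

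Coordinates and exon lengths come from GENCODE M21 (GRCm38, the assembly that mm10 names), matched by gene identifier for all 71 genes. Exons of 29 of them overlap a gene on the opposite strand, among them Dnah2, Dnah6, Dnah11, Hydin and Cfap65, and of 3 a gene on the same strand. Promoters and gene names are from RefSeq (GRCm38.p6); of 62 promoters compared, 53 ended in sequence near the start of an M21 transcript on the written strand. The members and lists were chosen with earlier results of these data known. Members named were the 9 listed by name and, in each class, the 3 of highest mean CPM, the 3 of smallest p and the highest log2 fold change; outside lists gave the 2 of smallest p. Others were named after their values were seen. Markers of astrocytes, oligodendrocytes and microglia were checked as well: 3 of 9, 9 of 9 and 5 of 8 were lower, with medians of 0.05, -0.29 and -0.06.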

Additional observations from a re-analysis of the deposited data

How the results depend on the processing

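The number of motile cilia genes with an adjusted p under 0.05 was 0 in the main test, 8 with DESeq2, and 0 to 7 when each library was left out in turn, the 7 arising without control 3; the cause was not tested. Over all genes the number was 0, and 79 with DESeq2, 0 to 82 with single libraries left out (82 without control 3), 3 against control 3 alone and 2 at an adjusted p of 0.1. The median log2 fold change of the 71 genes was -0.57, -0.42 to -0.68 with single libraries left out and -0.23 against control 3 alone, where fewer samples were used. With age as a covariate, which differs between the groups, it was -0.77; there Dnah9 was at -0.63, Dnai1 at -0.65, Dnai2 at -1.45, Spag16 at -2.37, Spag17 at -0.53, Tekt1 at -2.16, Tekt5 at 0.52 and Ttc21a at -3.49, and 0 members passed. Their number lower stayed between 53 and 63 under the alternatives that tested all 71, and was 55 of 64 at a mean CPM of at least 1.

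Of 584 values of 39 named genes under the alternatives, 550 kept direction and side of the threshold, 15 passed it and 19 changed sign, in 9 genes. The cause was not tested. No member passed in the main test, so the 550 kept their sign and did not pass, whatever their size. Among them are Drc7 at -0.73 and Rsph1 at -0.035 against control 3 alone, from -3.60 and -1.17. DESeq2 adjusted p for 67 of the 71 members, and a value without one counted as not passing. Against control 3 alone Dnah9 was at 0.021, Dnai1 at 0.36, Spag16 at 0.048, Tekt1 at 0.55, Tekt2 at 0.88 and Tekt5 at -0.024. Cfap97 was at -0.017 with age as a covariate. Rsph3b, at 0.00034 in the main test, was at -0.014 with library size alone, -0.0049 at a mean CPM of at least 1, -0.018 with the replicate block and -0.016 with limma-voom. With single libraries left out Cfap20 ran from -0.014 to 0.055, Cfap97 from -0.0015 to 0.12, Rsph3b from -0.13 to 0.15 and Tekt2 from -0.54 to 0.20. The replicate numbers did not pair the libraries (correlations of same-numbered libraries 0.10, -0.046 and -0.014 over genes), and with the replicate block 0 members passed and the median was -0.57.

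With 25 of the 71 genes under 2 CPM, single-gene differences were imprecise: the median SE was 0.42 on the log2 scale there, and 0.13 above 10 CPM.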
